A study of Homo sapiens with 6 samples.

Results

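The HSP70 family genes described are HSPA1A, HSPA1B, HSPA1L, HSPA2, HSPA4, HSPA6, HSPA8, HSPA9, HSPA13 and HSPA14. They were taken by family name as 10 of the 60658 genes listed in each of 6 RNA-seq libraries. The aim was to see what happened to the RNA of HSP70, the target of the inhibitors, and of its relatives. Whether the inhibitors act on each of the 10 proteins was not tested. The 10 are not all HSP70 genes, and ranks and family shares below are among these 10. The libraries came from C4-2B MDVR and CWR22Rv1, a pair of established human castration-resistant prostate cancer cell lines, treated for 48 h with vehicle (DMSO), 10 μM apoptozole (APO) or 10 μM VER155008 (VER), with 1 library per condition. C4-2B MDVR was derived from C4-2B, and the study describes both lines as resistant to enzalutamide. The maintenance medium of C4-2B MDVR held 20 μM enzalutamide and that described for CWR22Rv1 none, so the drug and the line cannot be told apart. Whether enzalutamide was present during the 48 h is not given in the sources used here. The titles name C4-2B MDVR, whereas other labels of the same libraries give C4-2B and a parental cell line, and the titles were used. Levels are in FPKM, the sequenced fragments of a gene scaled to its transcript length and to the size of the library. In such bulk RNA, fewer cells of a type and less RNA per cell cannot be told apart. There was no replicate, so no difference below has a replicate check and none has a p-value.

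HSP70 proteins are chaperones that use ATP to bind and release unfolded stretches of other proteins. DNAJ proteins deliver these clients and stimulate the ATPase, and nucleotide exchange factors reset the cycle. APO and VER both inhibit the ATPase activity of HSP70. HSPA8 is the constitutive form in the cytosol, HSPA1A, HSPA1B and HSPA6 are induced by stress, HSPA9 works in mitochondria, and HSPA13 is linked to the endoplasmic reticulum. HSPA4 belongs to the HSP110 branch and acts as a nucleotide exchange factor, HSPA14 is found on ribosomes, and HSPA1L and HSPA2 are best known from testis. When chaperones are occupied by unfolded proteins, the transcription factor HSF1 binds heat shock elements, alternating GAA and TTC units, in the promoters of stress-inducible chaperone genes. In prostate cells the androgen receptor is itself a client of HSP70.

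The stress-inducible members and HSPA8 hold such units in the 250 bases before their RefSeq start, and the stretches below are shown because they are the parts of these promoters with heat shock units, and the levels of HSPA1A, HSPA1B and HSPA8 differed in direction between the inhibitors or lines. They are RefSeq promoter sequences on GRCh38.p14, printed 5′ to 3′ on the strand of the gene, with every match to GAANNTTC or TTCNNGAA in capitals. The HSPA1A stretch is chr6:31815293-31815463, that of HSPA1B chr6:31827488-31827658, that of HSPA6 chr1:161524340-161524489, and the 2 short stretches of HSPA8, on the minus strand, are chr11:123062345-123062374 and chr11:123062170-123062199. All 30 bases of either HSPA8 stretch also lie in annotated exons, inside the span of the gene given below, while the other stretches hold no exon base.
HSPA1A: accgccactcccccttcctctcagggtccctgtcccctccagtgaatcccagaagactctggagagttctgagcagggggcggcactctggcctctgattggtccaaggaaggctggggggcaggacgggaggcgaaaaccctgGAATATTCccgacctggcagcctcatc
HSPA1B: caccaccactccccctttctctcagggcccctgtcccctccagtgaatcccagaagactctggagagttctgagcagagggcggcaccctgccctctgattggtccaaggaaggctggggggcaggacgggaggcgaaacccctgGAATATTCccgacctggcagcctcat
HSPA6: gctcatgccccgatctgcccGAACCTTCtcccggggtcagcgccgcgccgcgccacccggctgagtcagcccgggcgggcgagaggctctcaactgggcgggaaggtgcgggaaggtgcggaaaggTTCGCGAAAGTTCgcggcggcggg
HSPA8, far stretch: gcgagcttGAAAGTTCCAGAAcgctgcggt
HSPA8, near stretch: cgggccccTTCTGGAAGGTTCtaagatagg

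Searched on both strands, GAANNTTC lay before the start of 5 of the 9 members with a RefSeq window (HSPA1A, HSPA1B, HSPA1L, HSPA6 and HSPA8), against 5.80% of the 34788 different windows of all genes. TTCNNGAA lay before 2 of the 9 (HSPA6 and HSPA8), against 6.63%. A run of 3 units, in which the GAANNTTC and TTCNNGAA matches overlap, lay in the HSPA6 window 74 bases before the start and in the HSPA8 window at 230 and at 55 bases, against 0.443% of all windows. HSPA1A and HSPA1B differ at 7 of 170 aligned bases of the printed stretch. Their windows also hold the TATA box TATAAA, at 30 and 29 bases before the start, which 10.8% of all windows hold. The window of HSPA1L shares 241 of its 300 bases with that of HSPA1A on the opposite strand, so its match is the same site. Neither heat shock pair nor TATAAA was found in the windows of HSPA2, HSPA4, HSPA9 and HSPA13, and HSPA14 was not searched. The endoplasmic reticulum stress element, CCAAT and CCACG set 9 bases apart, lay in no member's window, against 0.0747% of all. These matches describe the letters only.

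HSPA8 (ENSG00000109971, GRCh38 chromosome 11 from 123057489 to 123063230) had the highest level of the 10 members in every library. Its level in C4-2B MDVR cells was 1332 FPKM with DMSO, 1399 FPKM with APO and 719 FPKM with VER. In CWR22Rv1 cells it was 713 FPKM with DMSO, 545 FPKM with APO and 1210 FPKM with VER. VER thus went with the lowest level in one line and with the highest in the other. It held between 49.1% and 77.7% of the summed FPKM of the 10 members. The summed level was 1715, 1903 and 1089 FPKM in C4-2B MDVR cells and 1015, 1109 and 1588 FPKM in CWR22Rv1 cells, with DMSO, APO and VER in that order.

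**Figure D1:**
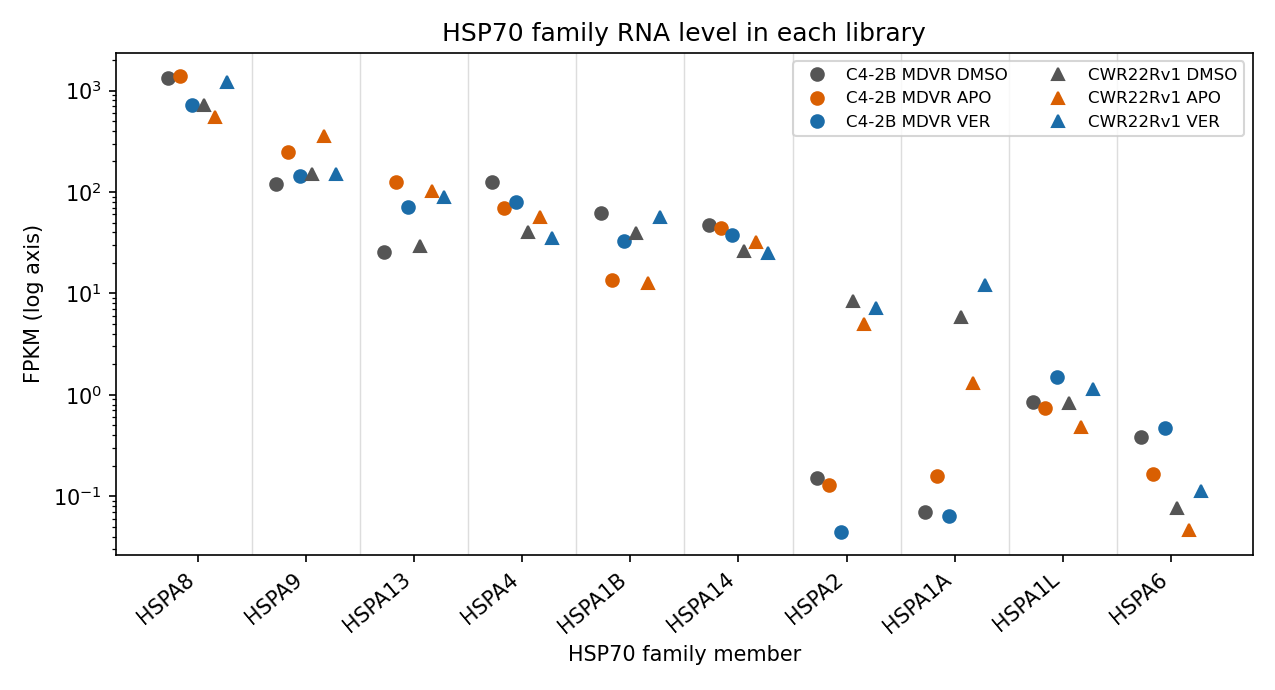
FPKM of each HSP70 family member (log axis) in the 6 libraries, with circles for C4-2B MDVR and triangles for CWR22Rv1 and a colour for each treatment. HSPA8 lies at the top in every library, from 545 to 1399 FPKM, while HSPA6 stays below 0.5 FPKM throughout. HSPA1A, whose split from HSPA1B is uncertain, and HSPA2 lie lower in the C4-2B MDVR than in the CWR22Rv1 libraries.

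Behind HSPA8 stood HSPA9 (ENSG00000113013, chromosome 5 from 138553756 to 138575724), HSPA4 (ENSG00000170606, chromosome 5 from 133051962 to 133106449), HSPA13 (ENSG00000155304, chromosome 21 from 14371115 to 14383484), HSPA14 (ENSG00000187522, chromosome 10 from 14838164 to 14871741) and HSPA1B (ENSG00000204388, chromosome 6 from 31827735 to 31830255), each above 10 FPKM in all 6 libraries. HSPA1L (ENSG00000204390, chromosome 6 from 31809619 to 31815065) lay between 0.486 and 1.503 FPKM. HSPA6 (ENSG00000173110, chromosome 1 from 161524540 to 161526910), which is silent without stress in most cells, lay between 0.0468 and 0.474 FPKM. HSPA2 (ENSG00000126803, chromosome 14 from 64535905 to 64546173) and HSPA1A (ENSG00000204389, chromosome 6 from 31815464 to 31817946) were near the bottom in C4-2B MDVR cells and measurable in CWR22Rv1 cells. FPKM is per length, so members can be ranked within a library, but neighbours in the ranking cannot be tested. HSPA4 ranked the second in C4-2B MDVR cells with DMSO, and HSPA9 held that place in the other 5 libraries.

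The libraries looked like prostate luminal cells. All 7 luminal markers checked, among them KRT8, KRT18 and FOLH1, were above 1 FPKM in all 6 libraries, with a summed level of 740 to 969 FPKM. The 10 markers of basal, stromal, blood and vessel cells summed to 4.89 to 11.2 FPKM, 8 of them were below 1 FPKM throughout, KRT5, TP63 and PECAM1 were listed at 0 in every library, and COL1A1 was the highest. Genes of the mitochondrial chromosome held 25.7% of all FPKM in CWR22Rv1 cells with DMSO and 10.4% with APO, and 14.8% to 16.4% in the C4-2B MDVR libraries. Their part in the results was not tested beyond the rescaling without them. The tables hold no read totals, and relative depth read from the spacing of low values ran from 1 in C4-2B MDVR with DMSO to 1.63 in C4-2B MDVR with APO.

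HSPA1A and HSPA1B encode nearly the same protein from neighbouring genes of chromosome 6. Their coding sequences in GENCODE 29 differ at 4 of 1923 bases, with an identical run of 1709 bases, and 67.1% of the 150-base windows of the HSPA1A transcript, the length of a read, occur unchanged in HSPA1B. How the quantification divided such reads is not given in the sources used here, so the split between the 2 genes is uncertain and their sum is the firmer value. With DMSO, APO and VER in turn, HSPA1A was listed at 0.0691, 0.158 and 0.0631 FPKM in C4-2B MDVR cells and at 5.79, 1.32 and 12.1 FPKM in CWR22Rv1 cells. HSPA1B was at 62.1, 13.5 and 33.0 FPKM in C4-2B MDVR cells and at 39.2, 12.5 and 56.6 FPKM in CWR22Rv1 cells. HSPA1A thus made up 0.111% to 1.16% of the pair in C4-2B MDVR and 9.52% to 17.6% in CWR22Rv1 libraries. The libraries of a line are different treatments and no replicates, so these ranges are a description of an uncertain split.

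**Figure D2:**
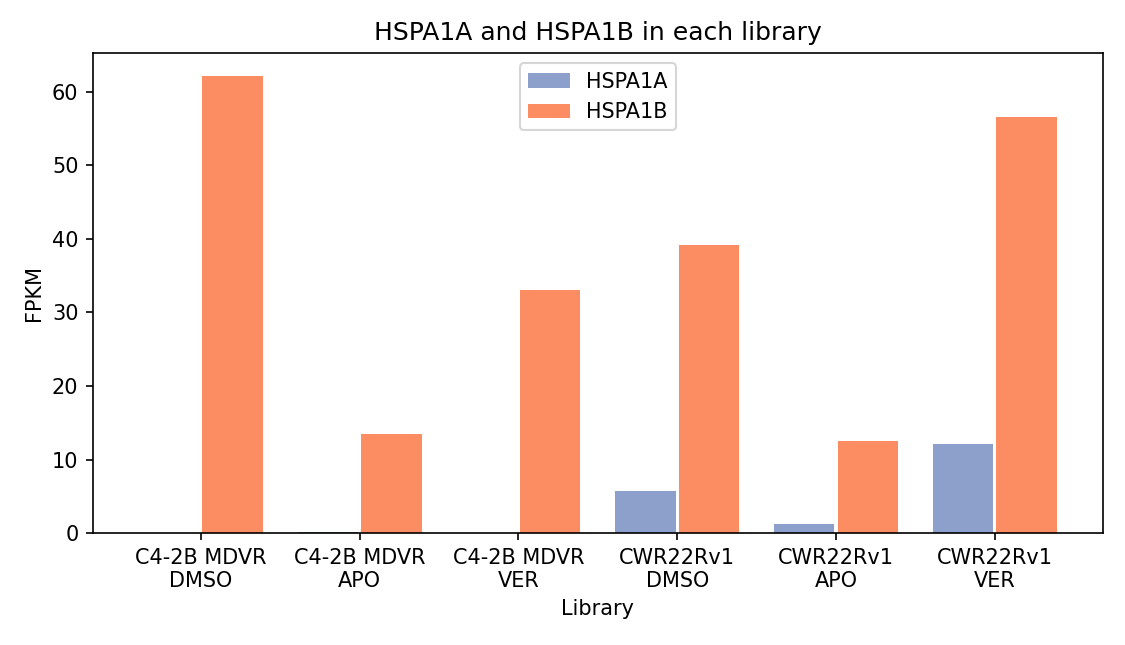
FPKM of HSPA1A and HSPA1B (bars from 0) in each library. HSPA1B is low with APO in both lines, at 13.5 and 12.5 FPKM, and the HSPA1A bars of C4-2B MDVR are too short to be seen, being under 0.2 FPKM.

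Summed, HSPA1A and HSPA1B gave 62.2 FPKM with DMSO, 13.6 FPKM with APO and 33.1 FPKM with VER in C4-2B MDVR cells. In CWR22Rv1 cells the sum was 45.0 FPKM with DMSO, 13.8 FPKM with APO and 68.7 FPKM with VER. APO went with the lowest level in either line, to almost the same FPKM, and VER with a level between DMSO and APO in C4-2B MDVR and above DMSO in CWR22Rv1. On the scale of log2(FPKM + 0.1) the differences from DMSO were -2.18 (APO) and -0.91 (VER) for C4-2B MDVR, and -1.69 and 0.61 in CWR22Rv1. Of all genes compared with APO, 2.70% had a fold change as low as that of the sum in C4-2B MDVR, and 6.78% in CWR22Rv1. HSPA8 was 21.4 times as high as the pair with DMSO, 103 times with APO and 21.8 times with VER in C4-2B MDVR, and 15.9, 39.3 and 17.6 times as high in CWR22Rv1.

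The changes of all 10 members against DMSO of the same line were then read against every gene that passed 0.1 FPKM in any of the 3 libraries from that line, of which 20122 were compared in C4-2B MDVR and 21608 in CWR22Rv1. A gene was called past a 1.2-fold difference of FPKM + 0.1, the threshold of the study, which is 0.26 on the log2 scale. Both inhibitors of a line are compared with the same DMSO library. All 10 members passed the filter in both lines, HSPA1A in C4-2B MDVR only through its APO library and HSPA6 in CWR22Rv1 only through its VER library.

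In C4-2B MDVR cells with APO, 3 members were called up (HSPA13, HSPA9 and HSPA1A) and 3 down (HSPA1B, HSPA4 and HSPA6), while 37.7% of all genes were up and 35.4% down. HSPA1A is among them only through the library in which it was high, and with the filter set in all 3 libraries, or a pseudocount of 1, the count up was 2. With VER, 3 members were up (HSPA13, HSPA1L and HSPA9) and 5 down (HSPA1B, HSPA8, HSPA2, HSPA4 and HSPA14), against 35.6% and 34.9% of all genes. At a pseudocount of 1 the count down in this line was 2 with APO and 4 with VER. With the filter set in all 3 libraries it was 3 and 4. In CWR22Rv1 cells with APO, 4 members were up (HSPA13, HSPA9, HSPA4 and HSPA14) and 6 down, against 35.6% and 39.2%. HSPA6, compared in this line only through its VER library, is among the 6. The count down was 5 with the filter set in all 3 libraries or a pseudocount of 1. With VER, 6 members were up (HSPA13, HSPA1A, HSPA8, HSPA1B, HSPA1L and HSPA6) and 0 down, against 32.1% and 32.3%. HSPA6 is likewise among them only through its VER library, and the count up was 5 with the filter set in all 3 libraries and 4 with a pseudocount of 1. With no replicate there is no p-value to set beside these counts, which pass a fold of 1.2 and no test. The median log2 fold change of the members was -0.11 (APO) and -0.18 (VER) for the C4-2B MDVR line and -0.33 and 0.35 in CWR22Rv1, while that of all genes was between -0.0131 and 0. Calls of members at or below 0.5 FPKM, such as HSPA6 in both lines and HSPA1A in C4-2B MDVR, rest on low values and depend on the pseudocount.

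**Figure D3:**
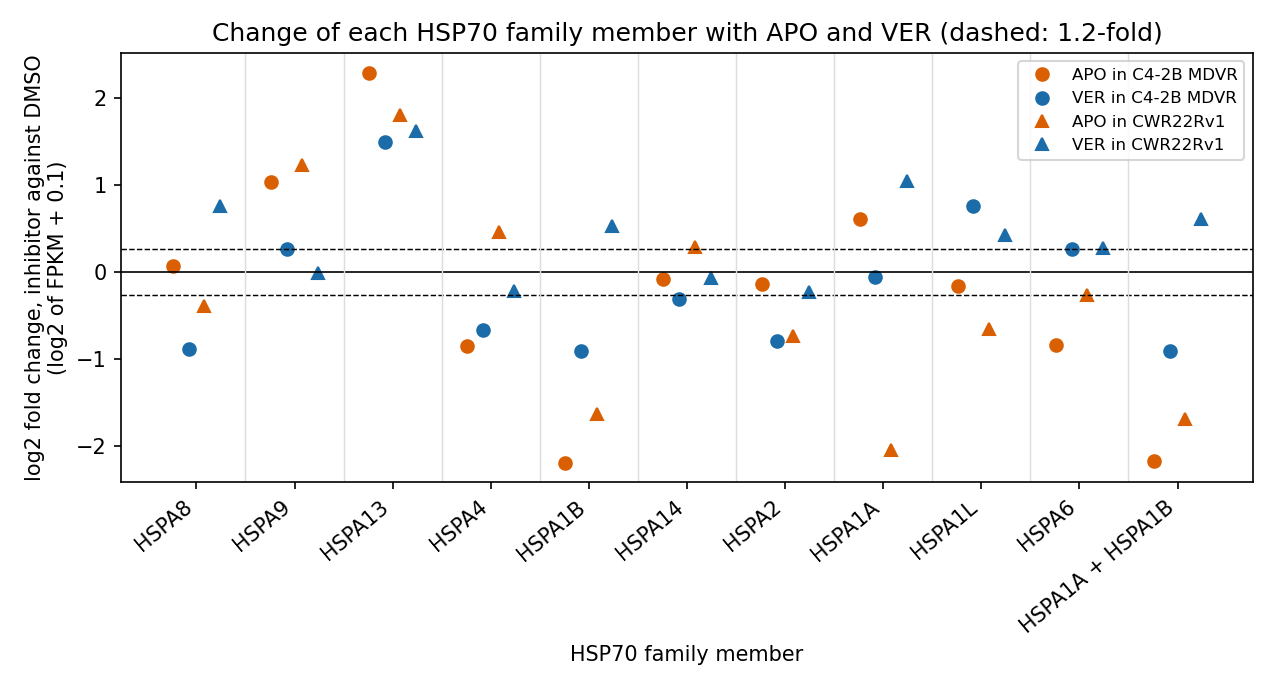
Log2 fold change of FPKM + 0.1 against DMSO of the same line for each member and for the sum of HSPA1A and HSPA1B, with circles for C4-2B MDVR and triangles for CWR22Rv1, orange for APO and blue for VER. Dashed lines mark 1.2-fold. HSPA13 lies above the upper line 4 times, at 1.49 to 2.30, and HSPA8 with VER lies below the lower line in C4-2B MDVR, at -0.89, and above the upper line in CWR22Rv1, at 0.76.

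HSPA13, which carries an ATPase domain but lacks the usual substrate-binding part of HSP70, was the member with the largest increase in each of the 4 comparisons. Its level was 25.3 FPKM with DMSO, 125 FPKM with APO and 71.5 FPKM with VER in C4-2B MDVR cells. In CWR22Rv1 cells it was 29.1, 102 and 90.1 FPKM in the same order. All 4 treated libraries lay above both DMSO libraries, by 2.82-fold or more against DMSO of the same line. The share of all genes with such a separation was not computed. The log2 differences were 2.30 and 1.49 in C4-2B MDVR and 1.81 and 1.63 in CWR22Rv1 with APO and VER, above 96.8%, 92.4%, 95.2% and 95.3% of all genes.

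HSPA9, the mitochondrial HSP70 (mortalin) that pulls imported proteins into the matrix, was higher with APO. It was at 121 FPKM with DMSO and 249 FPKM with APO in C4-2B MDVR cells, and at 151 and 355 FPKM in CWR22Rv1 cells. With VER it was at 145 FPKM in C4-2B MDVR and 151 FPKM in CWR22Rv1. The log2 fold changes with APO were 1.04 and 1.23, while with VER that in C4-2B MDVR was 0.27, just past the threshold, and that in CWR22Rv1 was -0.0053. HSPA8 was 11.0 times as high as HSPA9 with DMSO and 5.61 times with APO in C4-2B MDVR, and 4.71 and 1.53 times in CWR22Rv1.

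HSPA8 itself differed from DMSO by less than 1.2-fold with APO in C4-2B MDVR, at 0.07, and its sign there turned under rescaling to equal sums. It was lower with VER in that line, at -0.89. In CWR22Rv1 its log2 fold changes were -0.39 for APO and 0.76 for VER. Without HSPA8 the other 9 members summed to 383, 503 and 369 FPKM in C4-2B MDVR and to 302, 565 and 378 FPKM in CWR22Rv1 with DMSO, APO and VER. The APO sums are thus the highest in either line, and HSPA9 and HSPA13 are the members that exceeded their DMSO level there by the most FPKM.

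HSPA4 (Apg-2), a nucleotide exchange factor, was at 126 FPKM with DMSO, 70.1 FPKM with APO and 79.5 FPKM with VER in C4-2B MDVR cells. In CWR22Rv1 cells it was at 40.8, 56.0 and 35.1 FPKM. It was lower with either inhibitor in C4-2B MDVR, at -0.85 and -0.67, and higher with APO in CWR22Rv1, at 0.46, while VER in CWR22Rv1 gave -0.22. Among more distant relatives, HSPH1, the other abundant HSP110, was lower with APO in both lines, at -1.21 in C4-2B MDVR and -1.22 in CWR22Rv1, and at -0.89 and -0.15 with VER. HYOU1, the HSP110-type chaperone inside the endoplasmic reticulum, was higher with APO, at 1.64 and 0.89, and at 1.08 and 0.23 with VER.

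HSPA14, the ribosome-bound member, had the smallest maximum difference from DMSO over the 4 comparisons, at -0.31 with VER in C4-2B MDVR, although another member differed less in each single comparison. It was at 46.9, 44.3 and 37.9 FPKM in C4-2B MDVR cells and at 26.3, 32.1 and 25.1 FPKM in CWR22Rv1 cells with DMSO, APO and VER, all differences being under 1.25-fold. Its gene overlaps CDNF on the opposite strand, which was at 0.452 to 3.23 FPKM. The labels describe a library kit that marks the strand, and whether strand was used in counting is not given in the sources used here.

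Of the 3 weakly expressed members, HSPA1L was at 0.842, 0.746 and 1.503 FPKM in C4-2B MDVR cells and at 0.825, 0.486 and 1.14 FPKM in CWR22Rv1 cells, so the highest value in each line was with VER. HSPA2 was at 0.150, 0.128 and 0.0444 FPKM in C4-2B MDVR and at 8.42, 5.01 and 7.19 FPKM in CWR22Rv1. HSPA6, whose window holds the run of 3 heat shock units printed above, was at 0.379, 0.167 and 0.474 FPKM in C4-2B MDVR and at 0.0764, 0.0468 and 0.113 FPKM in CWR22Rv1, so the strictly inducible member stayed under 0.5 FPKM with either inhibitor. Of the 150-base windows of its transcript, 15.2% occur in its neighbour HSPA7, which was listed at 0.0939 FPKM or less. The 18 annotated pseudogenes of HSPA8 and HSPA9 in the tables reached 0.624 FPKM at most, and 13 of them were listed at 0 in all 6 libraries.

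The make-up of the family shifted with these changes. The share of HSPA8 in their summed FPKM was 77.7% in the DMSO library of C4-2B MDVR. It was 73.5% in the APO library and 66.1% in the VER library of that line. In CWR22Rv1 the share of HSPA8 was 70.3%, 49.1% and 76.2% in the same order. The share of HSPA13 was 1.48% and 2.87% with DMSO in the C4-2B MDVR and CWR22Rv1 lines and 5.68% to 9.21% in the 4 treated libraries. HSPA9 held 32.0% of the summed FPKM in CWR22Rv1 with APO, its highest share, against 14.9% with DMSO. The HSPA1A and HSPA1B pair held 3.63% with DMSO and 0.717% with APO in C4-2B MDVR, and 4.43% and 1.25% in CWR22Rv1.

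**Figure D4:**
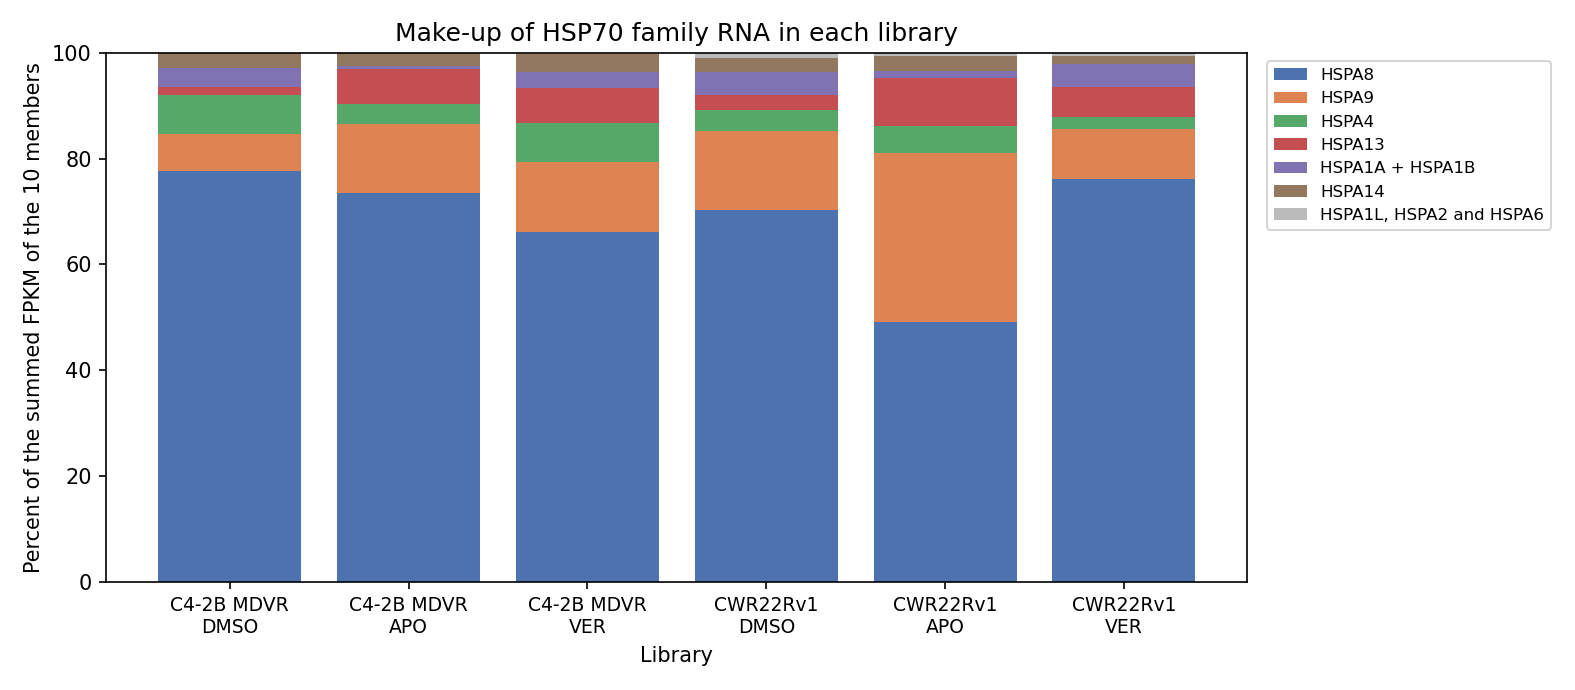
Share of each member in the summed FPKM of the 10 members, stacked to 100% for each library. HSPA8 holds between 49.1% and 77.7%, and HSPA9 and HSPA13 together take a larger part in the APO libraries than in the DMSO libraries.

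APO and VER were compared at the same dose and time within each line, as a description without a test, over 10 members and the HSPA1A and HSPA1B sum. The sum was 2.41-fold higher with VER than with APO in C4-2B MDVR and 4.93-fold higher in CWR22Rv1. HSPA1L was also higher with VER, by 1.90-fold and 2.11-fold, and HSPA9 was lower with VER, by 1.71-fold and 2.35-fold. HSPA8 was 1.95-fold lower with VER than with APO in C4-2B MDVR and 2.22-fold higher in CWR22Rv1. HSPA13 was 1.75-fold lower with VER in C4-2B MDVR and 1.13-fold lower in CWR22Rv1. VER minus APO on the log2 scale was -0.66 in C4-2B MDVR and 0.51 in CWR22Rv1 for HSPA2, 0.18 and -0.68 for HSPA4, 1.10 and 0.54 for HSPA6, and -0.23 and -0.35 for HSPA14. Within the pair it was -0.66 and 3.11 for HSPA1A and 1.28 and 2.17 for HSPA1B. The sign was the same in both lines for HSPA1B, the sum, HSPA1L, HSPA6, HSPA9, HSPA13 and HSPA14. It was opposite for HSPA1A, HSPA2, HSPA4 and HSPA8. Single libraries stand behind each value, and the share of all genes with the same sign was not computed. Differences under 1.2-fold, such as that of HSPA13 in CWR22Rv1, and values near the floor give no firm sign.

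With DMSO alone, 5 members were higher in C4-2B MDVR than in CWR22Rv1 past 1.2-fold and 3 lower, against 39.2% and 43.2% of 20903 genes. HSPA4 was 3.09-fold, HSPA8 1.87-fold, HSPA14 1.78-fold and HSPA1B 1.58-fold higher, and HSPA6 was higher too but below 0.4 FPKM in both lines. HSPA1A and HSPA2 were lower, by -5.12 and -5.09 on the log2(FPKM + 0.1) scale, both being at 0.15 FPKM or less in C4-2B MDVR. The split between HSPA1A and HSPA1B is uncertain, so their separate values here are uncertain too. Their sum, the firmer value, was 62.2 FPKM in C4-2B MDVR and 45.0 FPKM in CWR22Rv1, 1.38-fold higher in C4-2B MDVR. HSPA9 was lower by -0.32, and HSPA1L and HSPA13 differed by less than 1.2-fold. With equal sums without mitochondrial genes HSPA13 came to -0.33, past the threshold.

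The heat shock response was described with 25 genes, the factors HSF1 and HSF2 and well-known heat shock targets outside the 10 members. In C4-2B MDVR cells 5 were up and 14 down after APO, and 4 up and 15 down after VER, against 37.7% up and 35.4% down of all genes for APO and 35.6% and 34.9% for VER. The list medians on the log2 scale were -0.45 and -0.46, and the median of all genes was 0 in both. In CWR22Rv1 cells 5 were up and 10 down with APO, against 35.6% and 39.2% of all genes, and 1 up and 5 down with VER, against 32.1% and 32.3%. The list medians were -0.14 and -0.13, where those of all genes were -0.0131 and -0.0001. HSF1 was at 63.02, 64.5 and 62.4 FPKM in C4-2B MDVR and at 32.1, 44.0 and 29.7 FPKM in CWR22Rv1 with DMSO, APO and VER. By the mean of APO and VER, the lowest in C4-2B MDVR were CHORDC1, an HSP90 co-chaperone, at -1.18 and -1.10, and HSPH1. The highest there were the small heat shock proteins HSPB8, at 1.40 and 0.47, and CRYAB, at 1.10 and 0.74. In CWR22Rv1 the lowest were HSPH1 and FKBP4, the HSP90-bound prolyl isomerase, at -0.83 and -0.42. The highest in CWR22Rv1 was SERPINH1, the collagen chaperone, at 0.14 and 0.77. HSPA1B, at -2.20 in C4-2B MDVR with APO, was lower than any of the 25 genes there.

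**Figure D5:**
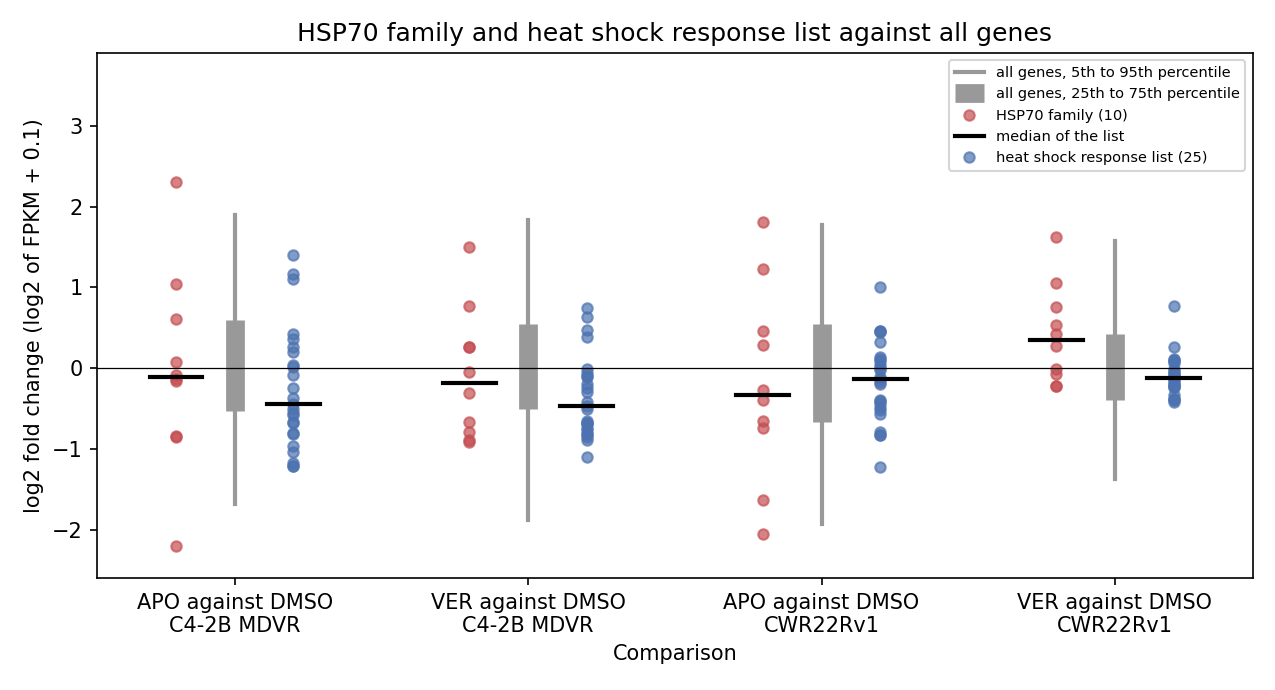
Log2 fold change of FPKM + 0.1 in the 4 comparisons for the 10 HSP70 family members (red), the 25 genes of the heat shock response list (blue) and all genes compared (grey, thick from the 25th to the 75th and thin from the 5th to the 95th percentile), with black bars for the median of each list. The heat shock list has medians of -0.46 to -0.13, and in C4-2B MDVR with APO the family spreads between -2.20 and 2.30.

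The genes whose levels were most like those of the HSPA1A and HSPA1B sum over the 6 libraries were CPT1A, HSH2D, TLCD1, AC135050.5 and ADAM8, with Pearson correlations of log2(FPKM + 0.1) of 0.957 to 0.982 among 10120 genes that averaged 1 FPKM or more and ranged over 1 log2 unit or more. For HSPA8 they were AC103706.1, AL034379.1, ANKRD37, TM2D2 and DARS-AS1, with correlations of 0.912 to 0.975. The 6 points share 2 cell lines and single libraries, and these are the highest of many correlations over few points.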

How the data were processed

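RNA of the 6 libraries was sequenced by the authors as paired-end reads of 150 bases, and the deposited values are FPKM per gene. The submitters' processing notes name HISAT, Cufflinks and Cuffnorm and the build GRCh38, and the study's methods also name StringTie. Tool versions and the annotation release are not given in the sources used here. The study's methods and the labels describe different library kits. The 60658 Ensembl identifiers were matched to GENCODE 29, where 57047 had a symbol, and coordinates are from there. FPKM values are not counts and the tables give no read totals, so no count test and no interval was made, and precision at low values is unknown.

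Fold changes were differences of log2(FPKM + 0.1), for genes that passed 0.1 FPKM in any of the 3 libraries from a line (in either DMSO library between lines), called past 1.2-fold. With 1 library per condition no test was run. The functions were tested on simulated data. Alternatives were pseudocounts of 0.01 and 1, other filters, thresholds of 1.5-fold and 2-fold, and rescaling to a median ratio of 1, to equal sums (TPM) or to equal sums without mitochondrial genes.

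The members and lists were chosen with earlier results of these data known. Named were all members, relatives where they bear on one, from the heat shock list the 2 highest and 2 lowest genes per line by the mean of APO and VER, and the 5 genes most like the HSPA1A and HSPA1B sum and HSPA8. Not every gene these rules cover is reported. Transcripts for the 150-base windows were from GENCODE 29 and promoter windows from RefSeq (GRCh38.p14). Python 3.11.15, pandas 2.3.3, numpy 2.4.6 and matplotlib 3.10.9 were used.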

Additional observations from a re-analysis of the deposited data

Results flagged for a closer look

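With the same inhibitor some members lay past 1.2-fold in opposite directions in the lines. Each value rests on 1 library per condition, and the difference between the lines was not tested. In the 4 comparisons 32.1% to 37.7% of all genes were called up and 32.3% to 39.2% down. How many of all genes were called in opposite directions was not computed, so these members are not set apart from other genes. With VER, HSPA8 had log2 fold changes of -0.89 in C4-2B MDVR and 0.76 in CWR22Rv1, a difference of -1.65. HSPA1B had -0.91 and 0.53 with VER, a difference of -1.44, and its sum with HSPA1A had -0.91 and 0.61, a difference of -1.52. The sum of the 10 members had -0.66 and 0.65 with VER, a difference of -1.30, and most of that sum is HSPA8. With APO, HSPA4 had -0.85 and 0.46, a difference of -1.30. HSPA1A had 0.61 and -2.05 with APO, a difference of 2.66, but its levels in C4-2B MDVR were 0.158 FPKM or less and it passed the filter there only through the APO library. With a pseudocount of 1 the value in C4-2B MDVR was 0.11, under 1.2-fold, and with the filter set in all 3 libraries the gene was not compared, so no direction is drawn for it.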

How the results depend on the processing

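No paired analysis was possible because each condition has 1 library. A log2 value was taken to move when it crossed 1.2-fold or shifted by more than 0.26, and a count when it changed by more than 1.5 times. The HSPA1A and HSPA1B sum kept its direction past 1.2-fold in each comparison under the pseudocounts and rescalings tried, between -2.35 and -2.11 with APO and -0.91 and -0.89 with VER in C4-2B MDVR, and between -1.85 and -1.58 and 0.55 and 0.66 in CWR22Rv1. The sum of the 10 members with APO stayed within 1.2-fold and came to -0.0131 in C4-2B MDVR and -0.0259 in CWR22Rv1 with equal sums without mitochondrial genes. Of 366 values of single members recomputed, 334 stayed, 32 moved and 0 called values changed sign. Other filters decide only whether a member is compared and cannot alter its value. Thus 40 values with no filter, 34 above 0.1 FPKM in all 3 libraries and 32 above 1 FPKM stayed by construction. All 32 moves came from the pseudocounts and rescalings.

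TPM shifted the median of genes above 1 FPKM to -0.14 with APO in C4-2B MDVR and 0.12 in CWR22Rv1, and without mitochondrial genes to -0.15 and -0.15, and changes under them are relative to these shifts. With TPM, and likewise without mitochondrial genes, 2 members (HSPA2 and HSPA4) and 9 heat shock genes were down with VER in CWR22Rv1. Without mitochondrial genes 5 members were down and 3 heat shock genes up with APO in C4-2B MDVR, and HSPA14 with APO in CWR22Rv1 was at 0.13. The median-ratio rescaling gave 2 heat shock genes up with VER in CWR22Rv1. The shares of all genes called under these rescalings are not given here, so these counts describe the lists only.

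Higher thresholds lower the counts by construction. The shares of all genes past these thresholds are not given here, so the counts below are not set against other genes. At 1.5-fold, 2 members were up with APO and 3 with VER in CWR22Rv1. The heat shock list then had 3 up and 9 down with APO and 2 up with VER in C4-2B MDVR, and 1 up and 4 down with APO and 0 down with VER in CWR22Rv1. At 2-fold, 1 member was down with APO, and 1 up and 0 down with VER, in C4-2B MDVR, and 2 up and 2 down with APO and 2 up with VER in CWR22Rv1. The list then had 3 up and 4 down with APO and 0 up and 1 down with VER in C4-2B MDVR, and 0 up and 1 down with APO and 0 in either direction with VER in CWR22Rv1.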
